A study of Mus musculus with 17 samples.

Results

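The Notch pathway and arterial identity of brain endothelium were described through 10 genes: the receptors Notch1 and Notch4, the ligands Dll4, Jag1 and Jag2, the target gene Hey1, and the arterial endothelial genes Efnb2, Bmx, Sema3g and Gkn3. They were picked by name from the 42687 genes of the count table, by a rule that sets no threshold on a measured value. Each symbol matched 1 Ensembl gene, and all 10 were among the 18753 genes with enough counts to be tested. RNA had been sequenced from microvessels of mouse cerebral cortex, the small vessels left after homogenised cortex is spun through dextran. The animals were 10 to 11 months of age, either wild type (WT) or APP/PS1, transgenic mice that form amyloid deposits. Every mouse, controls included, had been injected intraperitoneally with a peptide (10 mg/kg, spaced 2 days apart over 2 weeks): gp91-ds-tat blocks NOX2, a superoxide-producing NADPH oxidase, and sgp91-ds-tat served as its control. The groups were WT with control peptide (WT_SC, n = 5), WT with inhibitor (WT_NOX2, n = 5), APP/PS1 with control peptide (APP_SC, n = 2) and APP/PS1 with inhibitor (APP_NOX2, n = 5). The sample labels write the peptides as SC and NOX2, which were taken as control peptide and inhibitor. The protocol in the labels speaks of ipsilateral cortex taken after surgery, and the surgery is not described there. The labels do not say whether animals were pooled or which promoter drives the transgenes, and p-values measure the spread between these libraries.

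Notch receptors sit on the surface of a cell and are activated by ligands of the Delta-like and Jagged families on a neighbouring cell. Activation leads to cleavage by an ADAM protease and then by gamma-secretase, a protease complex that also cleaves the amyloid precursor protein, and the freed intracellular domain enters the nucleus and acts with the DNA-binding protein RBPJ on genes of the Hes and Hey families. In blood vessels this pathway restrains sprouting and sets arterial against venous fate, and genes such as Efnb2, Bmx, Sema3g and, in brain, Gkn3 mark arterial endothelium.

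Library totals lay between 7316503 and 17862965 counts, with a median of 11342154. A member had between 60 and 5703 counts in a library, so the counting error of even the lowest members was small against the differences between libraries. Defining markers of the labelled cell types were present in every group, with summed levels of 2453 to 4451 CPM (counts relative to a library's TMM-scaled total) for 13 endothelial genes, 1060 to 1799 CPM for 7 pericyte genes and 3031 to 5213 CPM for 8 astrocyte genes. Neuronal markers (7 genes, 2499 to 4189 CPM) and oligodendrocyte markers (6 genes, 1441 to 2527 CPM) were also present, and the sum of 5 choroid plexus markers ran from 332 to 11052 CPM between libraries. App, the transgene's gene, was at 1262 to 2230 CPM in WT and 1897 to 3334 CPM in APP/PS1 libraries. Prnp, whose promoter drives the transgenes in the common APP/PS1 line, did not overlap between the genotypes, at 301 to 555 against 682 to 1418 CPM.

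The upstream sequences of Bmx, Sema3g and Gkn3 are shown because the results below turn on these arterial genes: the levels of Bmx and Sema3g were closely correlated between libraries, and no correlation of Gkn3 with either passed the test. Each is the 250 bases before the RefSeq start in GRCm38.p6, 5′ to 3′ on the gene's strand, at chrX:164258194-164258443 (minus strand), chr14:31217623-31217872 (plus strand) and chr6:87388936-87389185 (minus strand). Capitals mark a match to TGGGAA, the core of the RBPJ motif, searched on both strands.
Bmx: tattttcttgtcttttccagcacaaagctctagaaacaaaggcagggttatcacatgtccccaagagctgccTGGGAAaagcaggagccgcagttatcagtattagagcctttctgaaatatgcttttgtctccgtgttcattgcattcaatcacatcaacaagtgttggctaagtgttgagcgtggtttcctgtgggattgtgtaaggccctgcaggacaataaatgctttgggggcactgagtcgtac
Sema3g: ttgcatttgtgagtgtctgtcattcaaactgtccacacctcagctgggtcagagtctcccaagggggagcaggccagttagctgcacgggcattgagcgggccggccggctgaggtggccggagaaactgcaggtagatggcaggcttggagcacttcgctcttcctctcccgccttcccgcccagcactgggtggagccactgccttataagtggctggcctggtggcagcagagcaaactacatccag
Gkn3: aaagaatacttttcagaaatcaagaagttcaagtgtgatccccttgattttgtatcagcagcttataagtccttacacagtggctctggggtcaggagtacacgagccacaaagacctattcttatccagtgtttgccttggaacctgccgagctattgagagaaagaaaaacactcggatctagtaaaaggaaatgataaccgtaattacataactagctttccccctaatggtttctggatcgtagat
RefSeq promoters were matched for 9 of the 10 members, all but Hey1. TGGGAA occurred in 1 of the 9, Bmx, at position -178 from the start. Of all 32851 promoter windows of the same length, 7094 (21.6%) held it. A match is a run of letters and not a binding site.

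Scaled to exon length, the means of the 10 genes lay between 7.74 and 22.9 CPM per kb of exon. Gkn3 was highest at 22.9 ± 12.4 CPM per kb of exon (mean ± SD, n = 17), followed by Sema3g at 22.3 ± 6.52, Notch1 at 19.6 ± 3.11, Efnb2 at 19.1 ± 2.46 and Jag2 at 17.2 ± 3.32. Jag1 at 14.6 ± 3.26, Notch4 at 10.6 ± 2.91, Hey1 at 9.51 ± 1.93, Dll4 at 7.74 ± 2.37 and Bmx at 7.74 ± 1.90 CPM per kb completed the order. The clear steps were Hey1 over Dll4, in 17 of 17 libraries, Jag2 over Jag1 and Jag1 over Notch4, each in 16 of 17, and Efnb2 over Jag2 in 14 of 17. The other neighbours were not separated: Gkn3 exceeded Sema3g in 11 libraries, Sema3g exceeded Notch1 in 11, Notch1 exceeded Efnb2 in 7, Notch4 exceeded Hey1 in 8 and Dll4 exceeded Bmx in 9. In WT, Gkn3 was at 19.6 ± 14.1 CPM per kb and Sema3g at 22.9 ± 6.63 (SD, n = 10). In APP/PS1 they were at 27.7 ± 8.35 and 21.3 ± 6.77 (n = 7), so the order of these 2 means differed by genotype. This difference in order was not tested. In whole microvessels, fewer cells of a type and less RNA per cell cannot be told apart.

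**Figure D1:**
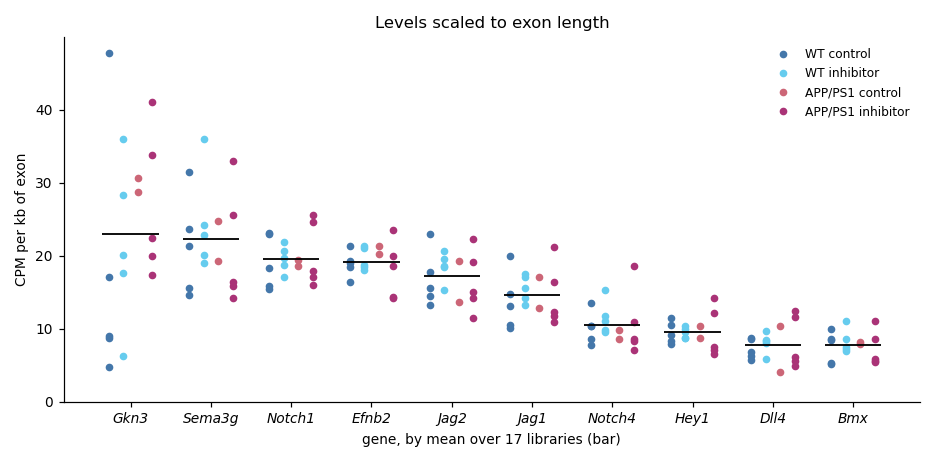
Level of each gene in CPM per kb of exon (linear axis), ordered by the mean over 17 libraries (bar); each point is a library, coloured by group. Gkn3 has the highest mean, 22.9, and the widest scatter, and Dll4 and Bmx share the lowest mean, 7.74.

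For none of the 10 genes did a difference between the genotypes or between the peptides pass the test. In APP/PS1 against WT over both peptides, 0 of 10 members passed an adjusted p of 0.05, beside 110 of 18753 genes (0.587%) in the background (edgeR quasi-likelihood test, Benjamini-Hochberg adjustment over all genes). For inhibitor against control peptide over both genotypes it was 0 of 10, beside 0% of all genes. Within the control peptide the genotype comparison called 0 of 10 members and 0.0533% of all genes, and within the inhibitor 0 of 10 and 0.181%. The inhibitor in WT, the inhibitor in APP/PS1 and the interaction called 0 members, and 0% of all genes each. In none of these 7 comparisons did a member have an unadjusted p under 0.05, by edgeR or by DESeq2. DESeq2 also called 0 members in each, beside 0.971% of all genes for genotype over both peptides, 0.24% for genotype with control peptide, 0.325% for genotype with inhibitor and 0% in the other 4. No member separated the libraries of the genotypes without overlap, as 51 genes (0.272%) did, and none separated the peptides, as 0 genes did.

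The intervals show what size of change remained possible. Without Gkn3, the 95% confidence intervals of the log2 change together spanned -0.51 to 0.43 for genotype and -0.32 to 0.60 for the inhibitor. The narrowest was that of Efnb2, whose log2 change with genotype was -0.02 (-0.22 to 0.18). The widest was that of Gkn3, from -0.29 to 1.26 with genotype and from -0.65 to 0.93 with inhibitor. Those intervals are over both peptides or both genotypes, and the other comparisons had wider ones. Leaving out Gkn3, genotype spanned -0.75 to 0.72 with control peptide and -0.72 to 0.57 with inhibitor. The inhibitor spanned -0.40 to 0.71 in WT and -0.74 to 0.93 in APP/PS1. The interaction spanned -1.10 to 0.95 without Gkn3 and -2.13 to 1.21 with it. The median log2 change of the members was -0.01 with genotype and 0.09 with inhibitor, against a median of 0.00 over all genes in both. The inhibitor value was positive for 9 of 10 members, against 51.4% of all genes. The 8 smooth muscle markers were all above 0 with inhibitor as well (median log2 change 0.33, 0 past the threshold), and with their mean as a covariate 3 of 10 members were positive, Notch4, Dll4 and Jag2. With the endothelial marker mean as a covariate 7 of 10 were positive. The part of smooth muscle or endothelial content in these signs was not tested. These members varied together between libraries, so their signs are not separate observations. In WT the inhibitor value was positive for 10 of 10 members (median 0.15). With the smooth muscle covariate it was positive for 7 of 10, and with the endothelial covariate for 8 of 10. In APP/PS1 it was positive for 3 of 10 (median -0.02), and with those covariates for 3 and 6 of 10. The interaction, the difference between the inhibitor values in APP/PS1 and in WT, had a median of -0.18 over the members. It was lowest for Gkn3 (-0.46 ± 0.79 SE), Bmx (-0.27 ± 0.35) and Sema3g (-0.26 ± 0.40). These comparisons share libraries, and APP/PS1 with control peptide has only 2.

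**Figure D2:**
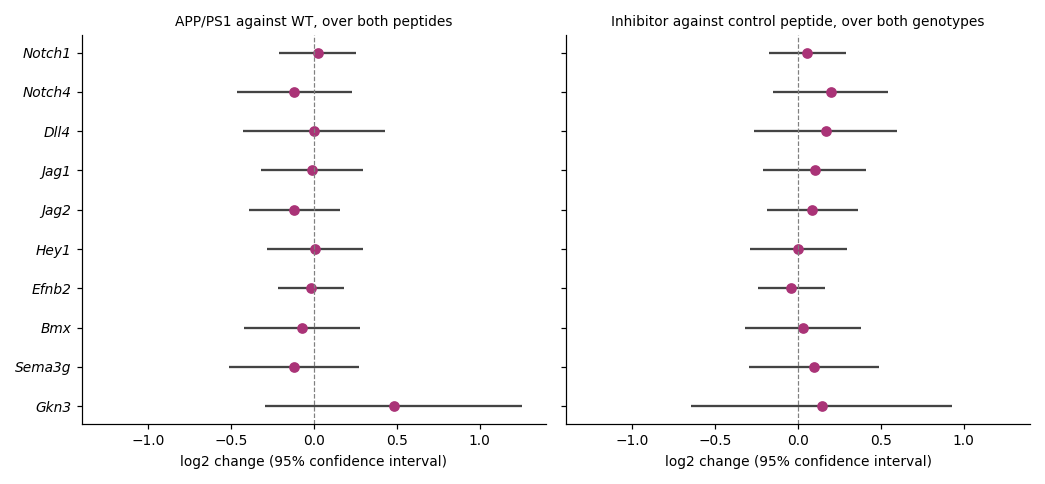
Log2 change of each gene for APP/PS1 against WT over both peptides (left) and for inhibitor against control peptide over both genotypes (right), with 95% confidence intervals from the edgeR fit of 17 libraries. Every interval includes 0, and Gkn3 has the widest in both panels.

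Among the receptors, Notch1 (ENSMUSG00000026923, chromosome 2, 26457903 to 26516663, minus strand) was the most abundant member in plain CPM. It was at 273 ± 52.9 CPM in WT_SC (SD, n = 5), 279 ± 25.9 in WT_NOX2 (n = 5), 271 ± 7.55 in APP_SC (n = 2) and 288 ± 64.3 in APP_NOX2 (n = 5). All 17 libraries fell between 221 and 364 CPM and the groups overlapped throughout. The log2 change was 0.02 ± 0.11 (SE) with genotype and 0.05 ± 0.11 with inhibitor. Exons of 2 antisense transcripts, Gm13568 and 0610009E02Rik, cover 2.91% and 7.5% of the exon length of Notch1, and the strand setting of the counting is not given in the sources used here.

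Notch4 (ENSMUSG00000015468, chromosome 17, 34564268 to 34588503, plus strand) is a receptor largely restricted to endothelium. The 5 WT_SC libraries were at 83.5, 62.6, 83.9, 109 and 69.1 CPM, and the 5 WT_NOX2 libraries at 94.7, 79.7, 123, 89.0 and 76.6 CPM. APP_SC was at 69.0 and 79.0 CPM, and APP_NOX2 at 57.2, 87.7, 67.0, 69.8 and 149.6 CPM. Both the lowest and the highest library were in APP_NOX2, a 2.62-fold range within that group. The log2 change was -0.12 ± 0.17 (SE) with genotype and 0.20 ± 0.17 with inhibitor (unadjusted p = 0.254, the smallest of the members for the inhibitor in that edgeR fit; adjusted p = 1.00).

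Of the ligands, Dll4 (ENSMUSG00000027314, chromosome 2, 119325784 to 119335962, plus strand) is the endothelial ligand of sprouting tip cells and of arteries. WT_SC libraries were at 26.5, 21.9, 33.2, 33.8 and 24.0 CPM and WT_NOX2 libraries at 32.4, 22.4, 37.4, 31.2 and 32.1 CPM. The 2 APP_SC libraries, at 15.6 and 39.8 CPM, were further apart than the whole of WT, and APP_NOX2 libraries were at 19.0, 44.9, 21.4, 23.6 and 47.7 CPM. APP/PS1 libraries thus lay on both sides of the WT range of 21.9 to 37.4 CPM, and the log2 change with genotype was 0.00 ± 0.21 (SE). The antisense transcript Gm14207 covers 5.56% of the exon length of Dll4.

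Jag1 (ENSMUSG00000027276, chromosome 2, 137081456 to 137116644, minus strand), a Jagged ligand present in endothelium and mural cells, was at 79.8 ± 23.5 CPM in WT_SC, 90.6 ± 10.7 in WT_NOX2, 87.4 ± 17.2 in APP_SC and 84.8 ± 25.0 in APP_NOX2. Jag2 (ENSMUSG00000002799, chromosome 12, 112907819 to 112929776, minus strand), the second Jagged ligand, was at 117 ± 26.7, 129 ± 14.0, 115 ± 28.0 and 114.7 ± 29.7 CPM in the same order. In both genes the gap between the highest and the lowest group mean was smaller than the SD within WT_SC. Log2 changes with genotype were -0.01 ± 0.15 for Jag1 and -0.12 ± 0.13 for Jag2 (SE), and with inhibitor 0.10 ± 0.15 and 0.09 ± 0.13.

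Hey1 (ENSMUSG00000040289, chromosome 3, 8663359 to 8667256, minus strand), a transcriptional repressor and direct Notch target, had nearly the same mean in all groups. It was at 31.0 ± 4.98 CPM in WT_SC, 31.0 ± 2.45 in WT_NOX2, 31.2 ± 3.59 in APP_SC and 31.1 ± 11.2 in APP_NOX2. The scatter was widest in APP_NOX2, from 21.4 to 46.2 CPM, a range that takes in every library of the other groups. The log2 change was 0.01 ± 0.14 (SE) with genotype and 0.00 ± 0.14 with inhibitor.

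Of the arterial genes, Efnb2 (ENSMUSG00000001300, chromosome 8, 8617434 to 8661242, minus strand) encodes ephrin-B2, the arterial partner of the venous receptor EphB4. It was the steadiest member, at 129.6 ± 12.4 CPM in WT_SC, 134 ± 10.5 in WT_NOX2, 142 ± 5.49 in APP_SC and 125 ± 27.1 in APP_NOX2. Bmx (ENSMUSG00000031377, chromosome X, 164192842 to 164258193, minus strand), a non-receptor tyrosine kinase of arterial endothelium, was at 26.4, 15.8, 26.3, 30.9 and 16.6 CPM in WT_SC and 23.3, 22.2, 34.0, 26.6 and 21.4 CPM in WT_NOX2. It was at 25.5 and 24.4 CPM in APP_SC and at 17.2, 34.4, 17.9, 16.9 and 26.6 CPM in APP_NOX2. WT_SC and APP_NOX2 both held low libraries, of 15.8 to 17.9 CPM, and a high one, of 30.9 and 34.4 CPM, and the log2 change of Bmx was -0.07 ± 0.17 (SE) with genotype.

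Sema3g (ENSMUSG00000021904, chromosome 14, 31217860 to 31230352, plus strand) encodes a secreted semaphorin of arterial endothelium. It was at 96.9, 66.7, 107, 143 and 70.9 CPM in WT_SC, and at 104, 86.3, 164, 110.3 and 91.1 CPM in WT_NOX2. APP_SC libraries were at 87.8 and 113 CPM and APP_NOX2 libraries at 64.6, 116, 74.4, 72.2 and 149.9 CPM. The libraries high for Sema3g, WT_NOX2 replicate 3, APP_NOX2 replicate 5 and WT_SC replicate 4, were also the 3 highest for Notch4. The log2 change was -0.12 ± 0.19 (SE) with genotype and 0.10 ± 0.19 with inhibitor.

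Gkn3 (ENSMUSG00000030048, chromosome 6, 87383256 to 87388935, minus strand) encodes gastrokine 3, a secreted protein first known from stomach and used as a marker of brain arterial endothelium. WT_SC libraries were at 4.05, 7.44, 14.6, 40.9 and 7.74 CPM, so that the lowest and the highest of all 17 libraries were in 1 group, 10.1-fold apart. WT_NOX2 libraries were at 15.1, 30.9, 5.39, 24.3 and 17.2 CPM, APP_SC libraries at 26.2 and 24.6 CPM, and APP_NOX2 libraries at 14.9, 35.1, 19.2, 17.1 and 28.9 CPM. The 4 libraries under 10 CPM were all WT, and no APP/PS1 library was under 14.9 CPM. The mean was 16.8 ± 12.04 CPM in WT (n = 10) and 23.7 ± 7.15 in APP/PS1 (n = 7), a log2 change of 0.48 ± 0.37 (SE; edgeR unadjusted p = 0.210, the smallest of the members for genotype, adjusted p = 0.938). Without WT_SC replicate 4, the one high library of its group, the log2 change was 0.77 (adjusted p = 0.526), and over the libraries left out in turn it ran from 0.35 to 0.77.

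**Figure D3:**
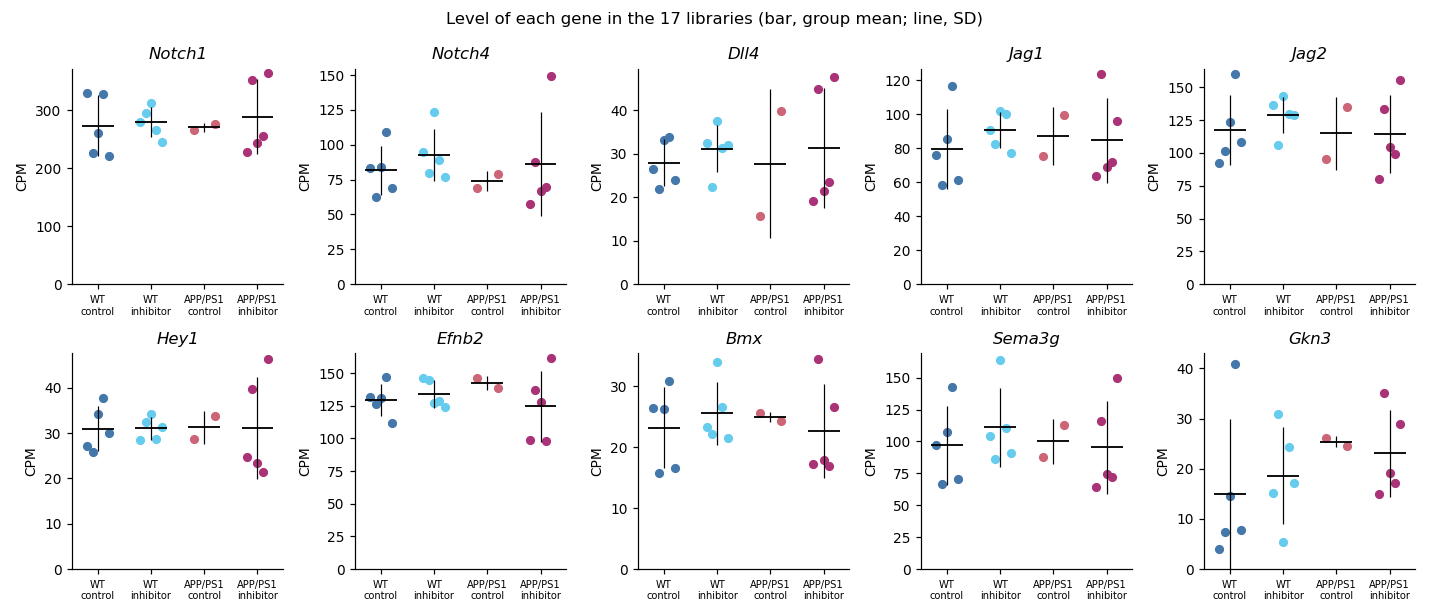
Level of each of the 10 genes in CPM (linear axes from 0) in the 4 groups; points are libraries, horizontal bars are group means and vertical lines the SD. The groups overlap for every gene, and the 4 Gkn3 points under 10 CPM are WT libraries.

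All 10 genes varied between libraries of the same group beyond counting error. The within-group SD of the log2 level was 0.92 for Gkn3, larger than in 99.3% of the 2921 genes tested within 0.5 log2 units of its level. It was 0.48 for Dll4 (larger than 97.7% of such genes), 0.44 for Sema3g (97.8%), 0.38 for Notch4 (96.1%) and 0.38 for Bmx (93.2%). Efnb2 had the smallest, 0.20, larger than 67.5%. The SD that counting alone gives was 0.12 for Gkn3 and 0.03 to 0.09 for the others.

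The members other than Gkn3 rose and fell together over the 17 libraries. Of the 45 pairs, 35 passed a permutation test of Pearson's r (100000 resamples, two-sided, Benjamini-Hochberg over 45 pairs), and 35 passed by Spearman's rho. The share of such pairs over all genes was not computed. Many genes varied with the members: of 18752 other genes tested, 73 (Hey1) to 304 (Jag1) had r over 0.8 with a member. Among the 36 pairs without Gkn3, 35 passed, with r from 0.43 to 0.93. The exception was Dll4 with Efnb2 (r = 0.43, rho = 0.41, adjusted permutation p = 0.105). The strongest was Notch4 with Sema3g (r = 0.93, rho = 0.90, adjusted permutation p = 6.43e-05, which rests on the smallest p the resamples can give), and r stayed at 0.93 without the 2 libraries farthest from the median of Notch4. Bmx with Sema3g reached r = 0.90 (rho = 0.90, 0.87 without 2 libraries) and Jag1 with Bmx r = 0.90 (rho = 0.90, 0.85 without 2 libraries), with the same adjusted p of 6.43e-05. With levels centred on group means and permuted within groups, 32 of the 45 pairs passed.

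For Gkn3, none of the 9 pairs passed, with r from 0.16 (Notch4, rho = 0.25) to 0.50 (Jag1, rho = 0.50, adjusted permutation p = 0.0531). These values depended on a few libraries. Without the 2 libraries farthest from the median of the other gene of the pair, r ran from 0.0035 (Bmx) to 0.60 (Efnb2). It rose from 0.21 to 0.50 for Sema3g and to 0.38 for Notch4, and fell to 0.34 for Jag1. By Spearman 1 of the 9 passed, Efnb2 (rho = 0.61, r = 0.39, adjusted permutation p = 0.0170 for rho), and within groups 2 passed, Efnb2 (r = 0.48) and Hey1 (r = 0.46), each at an adjusted permutation p of 0.0344. WT_SC replicate 1 and WT_NOX2 replicate 3 showed the contrast most plainly: they had the 2 lowest Gkn3 levels, 4.05 and 5.39 CPM, while Sema3g was at 96.9 and 164 CPM. The difference between the Gkn3 pairs and the others was not itself tested.

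**Figure D4:**
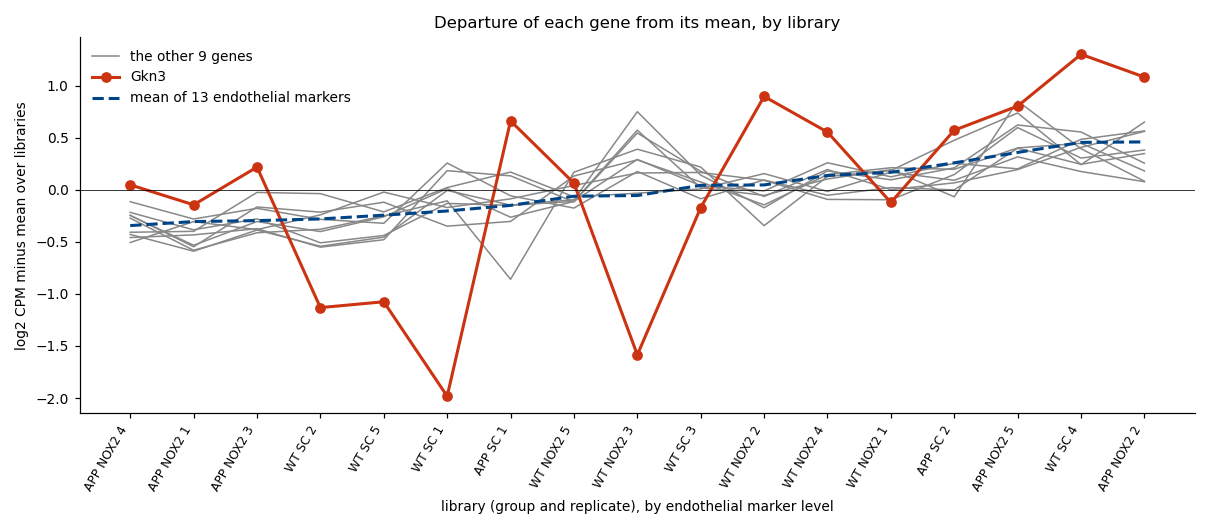
Log2 CPM of each gene minus its mean over the 17 libraries, with libraries ordered by the mean level of 13 endothelial markers (dashed). The other 9 genes (grey) climb with the endothelial markers, and Gkn3 (red) drops far below them in WT_SC replicates 1, 2 and 5 and WT_NOX2 replicate 3.

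Markers of the cell types in the preparation moved with the members. Against the mean log2 level of the 13 endothelial markers, 10 of 10 members passed (70 pairs with 7 marker lists, adjusted together), with r from 0.62 (Gkn3, rho = 0.62) to 0.90 (Jag1, rho = 0.88). Without the 2 libraries farthest from the median of these markers, r was 0.47 for Gkn3 and 0.84 for Jag1. With pericyte markers 9 of 10 passed, all but Gkn3 (r = 0.55, rho = 0.61, adjusted permutation p = 0.0699), and with smooth muscle markers 2, Jag1 (r = 0.61, rho = 0.59) and Notch1 (r = 0.59, rho = 0.57), which fell to 0.37 and 0.39 without 2 libraries. None passed with astrocyte, neuronal, oligodendrocyte or microglial markers over the 17 libraries. With levels centred on group means and permuted within groups the counts were 9 of 10 for endothelial markers, 5 for pericytes, 3 for microglia, 2 for astrocytes and 0 for the other 3 lists. The 5 with pericyte markers were Notch1, Jag1, Hey1, Efnb2 and also Gkn3 (within-group r = 0.61, adjusted permutation p = 0.0324). Microglial markers passed within groups with Notch1 (r = 0.83), Efnb2 (r = 0.80) and Notch4 (r = 0.74), and astrocyte markers with Efnb2 (r = 0.75) and Notch1 (r = 0.69). Once each member's regression on the endothelial mean was subtracted, a step added after the correlations were seen, 3 of the 45 pairs passed: Notch4 with Sema3g (residual r = 0.86), Jag1 with Bmx (0.78) and Bmx with Sema3g (0.76). The residuals of Gkn3 were then negatively correlated with those of all 9 other members, from -0.61 (Dll4) to -0.09 (Efnb2), and none of these passed.

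In 70 further pairs, examined after the first results, 11 passed. Ribosomal protein genes (mean of 78) passed with 5 members, most strongly Notch1 (r = 0.92, rho = 0.90), and fibroblast markers with 5, most strongly Jag1 (r = 0.86, rho = 0.82). Gkn3 was among the 5 of the fibroblast markers (r = 0.69, rho = 0.72, adjusted permutation p = 0.0191 for r and 0.0205 for rho). Its r was 0.59 without 2 libraries, and within groups this pair did not pass (r = 0.62, adjusted permutation p = 0.0913). Erythroid markers passed with 1, Gkn3 (r = 0.73, rho = 0.56, adjusted permutation p = 0.0107 for r and 0.1004 for rho). Without WT_NOX2 replicate 3 and WT_SC replicate 1, the 2 libraries in which Gkn3 was lowest, that r was 0.41. They are also the 2 farthest from the median of the erythroid markers. Leaving out extreme libraries can lower r by itself, so the fall does not show how far r rested on them. Within groups the erythroid pair did not pass (r = 0.70, adjusted permutation p = 0.0747). Only 3 of the 5 erythroid genes had enough counts to enter the mean used for r. The summed level of all 5 was 1.04 to 38.0 CPM over all libraries, with Hba-a1 and Hba-a2 at 0 in every WT_SC and APP_SC library. Its lowest values, 1.04 in WT_SC and 1.35 in WT_NOX2, compare with 12.8 CPM as the lowest in APP_NOX2 and 9.64 in APP_SC. Choroid plexus and neutrophil markers, log2 total count and the share of counts on Gm26917 and Gm42418 passed with 0 members. The part of these markers in the members' levels was not tested.

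**Figure D5:**
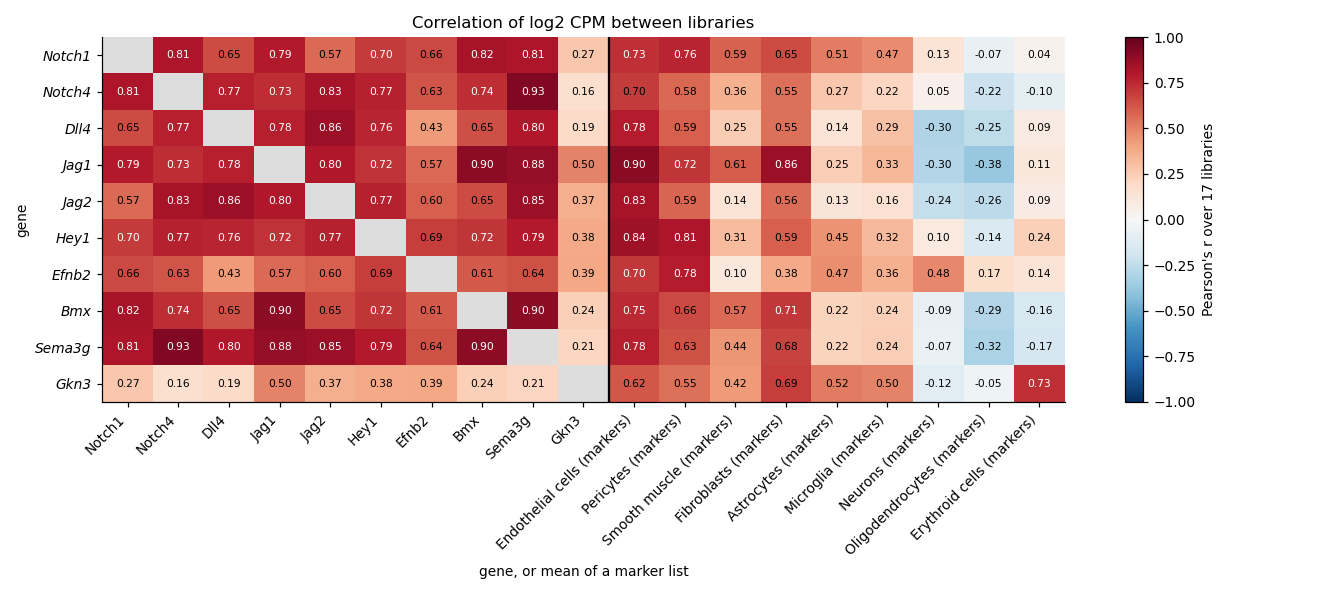
Pearson's r of log2 CPM over the 17 libraries, between the 10 genes (left of the line) and against the mean of each of 9 marker lists (right); red is positive and blue negative. The Gkn3 row and column are pale against the other genes, 0.16 to 0.50. Its highest values are with erythroid markers, 0.73, and fibroblast markers, 0.69.

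Among the 18752 other genes tested, those whose levels followed a member most closely over the 17 libraries are given as a description. Notch1 was closest to Robo4 (r = 0.95), an endothelial guidance receptor, then Spin1 (0.94) and Rps3a1 (0.92), a ribosomal protein gene. Notch4 and Sema3g shared Capn2, a calpain protease (r = 0.93 and 0.94), and each was second in the other's list; Mturn (0.93) and Rps4x (0.92) completed them. Dll4 was closest to Kremen1, Poldip3 and Ftl1 (0.92 each), and Jag1 to Rgs3, Itpr3 and Sox17 (0.94 each), of which Sox17 is an arterial transcription factor. Jag2 was closest to Akr1a1 (0.95), Dcaf7 (0.94) and Kif26a (0.93), and Hey1 to Slc30a1 (0.88), Txn1 (0.88) and Anxa2 (0.87). Efnb2 was closest to Rgmb (0.93), Clic5 (0.91) and Flrt2 (0.91), and Bmx to Rbbp7 (0.92), Adgrf5 (0.92), an endothelial adhesion receptor, and Ifi30 (0.90). Gkn3 was closest to Layn (0.94), a hyaluronan receptor, Adam17 (0.92), a protease that can cleave Notch, and Nrp1 (0.91), a co-receptor for VEGF and semaphorins.

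Other genes of the pathway were examined in the same comparisons. Together with other arterial, venous and capillary endothelial genes, 77 genes outside the members were listed and all were tested. edgeR called 0 of 77 in each of the 7 comparisons, with 2 at an unadjusted p under 0.05 for genotype over both peptides (6.38% of all genes), 2 for inhibitor over both genotypes (2.11%), 6 for genotype with control peptide (3.97%) and 5 for genotype with inhibitor (3.38%). For the inhibitor in WT it was 1 (1.34% of all genes), in APP/PS1 1 (1.8%) and for the interaction 2 (0.843%). DESeq2 called 2 for genotype over both peptides, Maml3 and Lcn2, where it called 182 of all genes (0.971%), and 0 in the other comparisons.

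Of the receptors, Notch2 was at 132 ± 29.1 CPM in WT and 139 ± 19.9 in APP/PS1 (SD, n = 10 and 7), a log2 change of 0.07 ± 0.13 (SE). Notch3, the receptor of pericytes and smooth muscle, was at 137 ± 20.1 and 141 ± 33.1 CPM, a log2 change of 0.03 ± 0.12. At 17.1 CPM per kb it lay between Efnb2 and Jag1 in level. Of the other ligands, Dll1 was at 2.39 and Dll3 at 0.29 CPM per kb, below all 10 members.

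Of 26 genes that process ligands and receptors, 0 passed in either direction for genotype or inhibitor, and the median log2 change was 0.02 with genotype and 0.03 with inhibitor. For genotype the smallest unadjusted p values were those of Aph1c, a gamma-secretase subunit (log2 change -0.21 ± 0.11 SE, adjusted p = 0.820), and Adam17 (0.16 ± 0.08, adjusted p = 0.827). Rfng, a glycosyltransferase that modifies Notch, had the smallest unadjusted p for the inhibitor (0.0168 by edgeR; log2 change 0.22 ± 0.08). Its log2 change with inhibitor was 0.07 ± 0.09 in WT and 0.47 ± 0.12 in APP/PS1, where the control group has 2 libraries, and the interaction was 0.39 ± 0.15 (unadjusted p = 0.0171, adjusted p = 1.00 by edgeR). Neurl1a, a ubiquitin ligase for Notch ligands, had a log2 change of 0.19 ± 0.10 with the inhibitor (unadjusted p = 0.0687 by edgeR). The level of Rfng was 19.1 to 30.03 CPM over all libraries.

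The 8 genes of the nuclear complex were all above 0 for genotype, against 50.7% of all genes. Their median log2 change was 0.07, and 0 passed by edgeR. Whether these 8 genes vary together between libraries was not tested, so their signs may not be separate observations. Maml3, a Mastermind co-activator, was at 26.3 ± 3.42 CPM in WT and 34.2 ± 6.05 in APP/PS1, a log2 change of 0.39 ± 0.10 (SE) with an edgeR adjusted p of 0.131. Ep300, an acetyltransferase co-activator, and Spen, a co-repressor, had log2 changes of 0.06 ± 0.07 and 0.11 ± 0.14. Rbpj itself was at 53.6 ± 4.62 and 54.6 ± 3.52 CPM. Of the 6 target genes, 0 passed: Hes1 was at 15.97 ± 1.69 CPM in WT and 16.6 ± 3.86 in APP/PS1, and Heyl, which is also a mural cell gene, at 23.8 ± 3.10 and 20.8 ± 7.18. Hey2 and Nrarp, a feedback inhibitor of Notch, had log2 changes of 0.11 ± 0.14 and -0.07 ± 0.12 (SE) with genotype. Hes5 had the target list's smallest p for the inhibitor (log2 change 0.43 ± 0.21, unadjusted p = 0.0574 by edgeR) at a level of 2.53 to 7.48 CPM.

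Among 15 other arterial genes 0 passed, with a median log2 change of 0.13 for genotype and 0.10 for inhibitor. Nrp1 was at 102 ± 15.8 CPM in WT and 114 ± 10.4 in APP/PS1 (log2 change 0.16 ± 0.09 SE, adjusted p = 0.863). Fbln2, a matrix protein, had log2 changes of 0.18 ± 0.15 with genotype and 0.22 ± 0.15 with inhibitor, and Cxcr4, a chemokine receptor of tip cells, of -0.07 ± 0.18 and -0.24 ± 0.18. Stmn2, which is also a neuronal gene, had a log2 change of 0.13 ± 0.10 with genotype. The arterial connexins Gja4 and Gja5 had log2 changes of -0.11 ± 0.19 and 0.14 ± 0.25. Among 12 venous genes 0 passed by edgeR: Lcn2, an inflammation-induced secreted protein, was at 31.1 ± 36.2 CPM in WT and 3.46 ± 1.51 in APP/PS1 (log2 change -2.89 ± 0.80, adjusted p = 0.166), with 0.63 to 113 CPM over all libraries. The adhesion molecule Icam1 and the chemokine receptor Ackr1 had log2 changes of -0.74 ± 0.42 and -0.51 ± 0.28 with genotype, and their highest WT libraries were at 97.6 and 101 CPM. Lrg1 had the list's smallest unadjusted p for the inhibitor, 0.0455 (log2 change -0.83 ± 0.39). Among 7 capillary genes 0 passed: Mfsd2a, the lipid transporter of the blood-brain barrier, had a log2 change of 0.12 ± 0.16 and the chemokine Cxcl12 one of 0.10 ± 0.18, and Rgcc had a log2 change of 0.29 ± 0.15 and Slc16a1 of -0.23 ± 0.12 with genotype.

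In the same fit, markers of other cell types were counted for genotype. Of 7 microglial markers 5 rose in APP/PS1 by edgeR, and the summed list was at 193 to 265 CPM in WT and 232 to 441 in APP/PS1. Of 8 astrocyte markers 1 rose, Gfap. Of 13 endothelial markers, 0 passed, and the median log2 change was 0.01 with genotype and 0.01 with inhibitor. Of 8 smooth muscle markers 0 passed.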

How the data were processed

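Per the submitters' processing notes, reads were handled with cutadapt, STAR, HTSeq and DESeq2, and the builds mm10 and GRCh37 are named; versions, annotation and the strand setting of the counting are not given in the sources used here. The authors deposited raw counts per Ensembl gene. The columns of the 17 libraries were matched by title, and 20 further columns were not used. Symbols were found for 42250 IDs and not for 437.

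Counts were filtered with filterByExpr and scaled by TMM. They were tested with edgeR 4.0.16 (R 4.3.3) in a quasi-likelihood fit of all 17 libraries, with Benjamini-Hochberg adjustment over 18753 genes and a threshold of 0.05. Genotype and inhibitor were tested in an additive model, and the other comparisons with 1 mean per group. The steps were tested on simulated data. DESeq2 1.42.0 was an alternative. Correlations used log2 CPM with a prior count of 2 (scipy 1.17.1). Exon lengths came from GENCODE vM21 on GRCm38. No 2 of the 136 library pairs were identical, and pairs within a group differed by more than sampling noise (chi-square per degree of freedom at least 5.04). Of 30 group values checked for a library standing apart from its group, 0 did.

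The members and gene lists were chosen with earlier results of these data known. All members are named, with up to 4 genes of each list by smallest p, the 3 genes most like each member, and App and Prnp. Rbpj, Hes1, Gja4 and Gja5 stand outside this rule and were named after their values were seen. Some genes of the lists are not reported here.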

Additional observations from a re-analysis of the deposited data

How the results depend on the processing

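Members called stayed at 0 in all 7 comparisons under every alternative run. These were DESeq2 size factors in edgeR, the DESeq2 Wald test, and no filter on low counts. The endothelial or smooth muscle marker mean was also used as a covariate, and each library of a comparison was left out in turn. Libraries outside a comparison were not left out of its fit. Counts over all genes moved more. The DESeq2 Wald test called 182 genes for genotype over both peptides, 45 with control peptide and 61 with inhibitor, and the endothelial covariate 55 with inhibitor. With libraries left out the first ran from 70 (without APP_SC replicate 2) to 125, the second from 4 (without APP_SC replicate 2) to 17 (without WT_SC replicate 4; 6 without WT_SC replicate 3 or APP_SC replicate 1), and the third from 15 (without WT_NOX2 replicate 5 or APP_NOX2 replicate 2) to 38, with 17, 19 and 21 without APP_NOX2 replicate 4, WT_NOX2 replicate 3 and WT_NOX2 replicate 1. The cause was not tested. Correlated member pairs ran from 32 to 38 with libraries left out, and 3 remained past the threshold on endothelial residuals. Pairs with marker lists ran from 13 (without WT_SC replicate 4, WT_SC replicate 5 or APP_NOX2 replicate 2) to 23.

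Uncalled member changes near 0 crossed it. For genotype, Dll4 was at -0.0056 with DESeq2 size factors and -0.0052 with the DESeq2 test, and Hey1 at -0.0014 and -0.0015. Dll4 and Hey1 were at -0.082 and -0.024 with the endothelial covariate and at -0.059 and -0.047 with the smooth muscle covariate, where Notch1 was at -0.031. For inhibitor, Hey1 was at -0.0052 with DESeq2 size factors, -0.0059 with the DESeq2 test, -6.7e-05 without the filter, -0.034 with the endothelial covariate (Bmx -0.0058) and -0.090 with the smooth muscle covariate, where Notch1 was at -0.053, Jag1 at -0.053, Bmx at -0.16, Sema3g at -0.063 and Gkn3 at -0.092. With libraries left out, genotype values ran from -0.037 to 0.064 for Notch1, -0.17 to 0.15 for Dll4, -0.12 to 0.048 for Jag1, -0.11 to 0.073 for Hey1, -0.077 to 0.035 for Efnb2 and -0.19 to 0.013 for Bmx. Inhibitor values ran from -0.064 to 0.051 for Hey1, -0.054 to 0.093 for Bmx, -0.020 to 0.20 for Sema3g and -0.032 to 0.57 for Gkn3. Other uncalled values kept their sign and still moved by over 1.5 times: with genotype Notch4 from -0.30 to -0.042, Jag2 from -0.20 to -0.055 and Sema3g from -0.24 to -0.0031, and with inhibitor Notch4 from 0.093 to 0.27, Dll4 from 0.023 to 0.35, Notch1 from 0.015 to 0.10, Jag1 from 0.035 to 0.20, Jag2 from 0.036 to 0.17 and Efnb2 from -0.076 to -0.0019. Member changes within single groups and in the interaction were not recomputed, only their calls. No paired analysis was possible because the labels give no replicate numbers shared between groups. The 2 APP_SC libraries limit the comparisons within the control peptide and within APP/PS1.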
